A study of Caenorhabditis elegans with 2 samples.

Results

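The peaks described here are the sites of the zinc-finger protein ZTF-16 that fell inside the 2 large piRNA gene clusters of Caenorhabditis elegans chromosome IV. They were chosen by position alone. A peak of the relaxed pooled list, in genome build ce11, belongs to the set when its summit lies on chromosome IV at 4500000 to 7000000 (the first cluster) or at 13500000 to 17200000 (the second cluster). Of the 14968 peaks of that list, 2248 were on chromosome IV and 591 met the rule, 252 in the first cluster and 339 in the second. The other 1657 peaks of the chromosome served as the comparison. In the 591, 99 peaks overlapped another member, and merging those that overlap left 541 separate regions.

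Chromatin immunoprecipitation and sequencing (ChIP-seq) recovers the DNA that a protein is bound to or near. The animals were of strain OP558, which carries unc-119(tm4063) III and the integrated transgene wgIs558, and that transgene makes ZTF-16 fused at its carboxyl end to a GFP and FLAG tag. Whole late embryos of mixed sex were collected 5 hours after synchronisation by egg bleaching, and sonicated chromatin was precipitated with an antibody against GFP. The 2 biological replicates formed a single group, with no other condition to set it against. No list from animals without the tag was analysed here, and values from whole embryos do not tell which cells held a site.

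piRNAs are small RNAs that guide the Argonaute protein PRG-1 to foreign and repeated sequences in the germline. In C. elegans they are called 21U-RNAs after their length and first base. Most come from very short genes that are each transcribed on their own and lie densely packed in AT-rich stretches of chromosome IV, in introns and between protein-coding genes. Many of these genes have an upstream motif, with the letters CTGTTTC in its core, and a nuclear complex that includes PRDE-1, SNPC-4, TOFU-4 and TOFU-5 binds over the clusters in germ cells. In late embryos the primordial germ cells are the only germline. ZTF-16 is related to Hunchback and Ikaros, transcription factors of flies and mammals.

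The sequences of the 3 strongest members of each cluster show what lay under the summits. Each line gives the summit and 50 bases to either side on the plus strand of the RefSeq genome, WBcel235, the same assembly as ce11. Capitals mark the bases of an annotated tRNA or miRNA gene or, where there is none, the letters GTTCGANNC on both strands, which belong to the internal promoter (B box) of tRNA genes.
Y17G9B.5 and rpl-20, chrIV:4750017-4750117: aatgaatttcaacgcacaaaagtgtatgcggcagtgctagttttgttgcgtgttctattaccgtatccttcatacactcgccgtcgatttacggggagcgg
tRNA-Lys gene near K02B2.6, chrIV:5967146-5967246: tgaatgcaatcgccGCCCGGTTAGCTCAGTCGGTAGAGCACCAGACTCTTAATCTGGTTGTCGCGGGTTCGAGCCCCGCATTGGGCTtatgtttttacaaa
jmjd-1.2, chrIV:4660639-4660739: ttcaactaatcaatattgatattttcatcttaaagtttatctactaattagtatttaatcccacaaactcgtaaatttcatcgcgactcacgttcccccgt
snx-13 and snr-1, chrIV:17087569-17087669: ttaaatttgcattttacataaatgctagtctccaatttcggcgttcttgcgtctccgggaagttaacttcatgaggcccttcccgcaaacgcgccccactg
cel-mir-52, chrIV:14034088-14034188: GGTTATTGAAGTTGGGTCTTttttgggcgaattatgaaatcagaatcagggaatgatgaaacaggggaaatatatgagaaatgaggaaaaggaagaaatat
Y57G11C.22 intron, chrIV:14838319-14838419: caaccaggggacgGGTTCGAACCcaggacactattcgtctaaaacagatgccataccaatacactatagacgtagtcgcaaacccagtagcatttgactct
No piRNA gene overlaps these 6 windows. The next lines show, for contrast, the member of each cluster whose summit lay nearest to a piRNA gene 5′ end among those with a peak in both replicates, with piRNA genes in capitals. In both lines 2 piRNA genes overlap, and their bases run together.
lgc-10 coding exon, chrIV:6451068-6451168: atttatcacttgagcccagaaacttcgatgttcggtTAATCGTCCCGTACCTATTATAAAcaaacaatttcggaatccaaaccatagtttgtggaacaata
near sra-30, chrIV:15207372-15207472: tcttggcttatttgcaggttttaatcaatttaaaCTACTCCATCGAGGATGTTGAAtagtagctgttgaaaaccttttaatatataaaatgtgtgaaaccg
Some of the piRNA genes beside such members are given on their own strand with 60 bases before them. Capitals mark the 21 bases of the gene and, where present, CTGTTTC.
21ur-11630, chrIV:6451047-6451127, plus strand: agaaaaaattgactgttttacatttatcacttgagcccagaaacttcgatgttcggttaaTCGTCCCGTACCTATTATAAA
21ur-4113, chrIV:15207406-15207486, minus strand: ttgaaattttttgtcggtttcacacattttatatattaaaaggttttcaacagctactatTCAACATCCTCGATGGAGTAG
21ur-233, chrIV:4839266-4839346, plus strand: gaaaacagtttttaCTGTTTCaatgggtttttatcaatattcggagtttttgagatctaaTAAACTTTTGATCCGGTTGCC
Of these 3 genes, 21ur-233 alone had CTGTTTC in that window. The genes 21ur-8163, 21ur-5563 and 21ur-6461, which lie beside other such members and are not printed, lacked it too.

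Peaks of the pooled list were sparser in the clusters than in the rest of the chromosome. The clusters held 95.3 peaks per Mb (591 peaks in 6.2 Mb, 95% Poisson interval 87.8 to 103.3), against 146.7 per Mb in the rest of chromosome IV (1657 peaks in 11.29 Mb, interval 139.7 to 154.0), a ratio of 0.650. Intervals here and below cover counting error only. The first cluster had 100.8 peaks per Mb and the second 91.6. The rest of the chromosome was itself uneven, with 188.7 per Mb before the clusters, 118.2 between them and 136.1 after them. Against the stretch between the clusters alone, the ratio was 0.807. The ratio to the whole rest of the chromosome was 0.679 in the relaxed list of replicate 1 and 0.676 in that of replicate 2, so both replicates gave the same order of the 2 regions. With 2 replicates of 1 group no test over samples could be made, and the comparison is a description of these lists.

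Among the strongest peaks the densities over the whole of each region were close. The list thresholded by the irreproducible discovery rate (IDR), a measure of how alike peaks rank in replicates, holds the 822 pooled peaks with the highest signal. It had 6.77 peaks per Mb in the clusters (42 peaks, interval 4.88 to 9.16) and 6.82 per Mb in the rest of chromosome IV (77 peaks, 5.38 to 8.52). The 822 strongest peaks of replicate 1 gave 6.45 per Mb in the clusters and 7.35 in the rest, and those of replicate 2 gave 6.94 and 7.17. The clusters also had fewer protein-coding genes, 151.8 gene 5′ ends per Mb against 207.2 in the rest of the chromosome. They held 14204 annotated piRNA genes (2291 per Mb), against 510 (45.2 per Mb) in the rest.

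**Figure D1:**
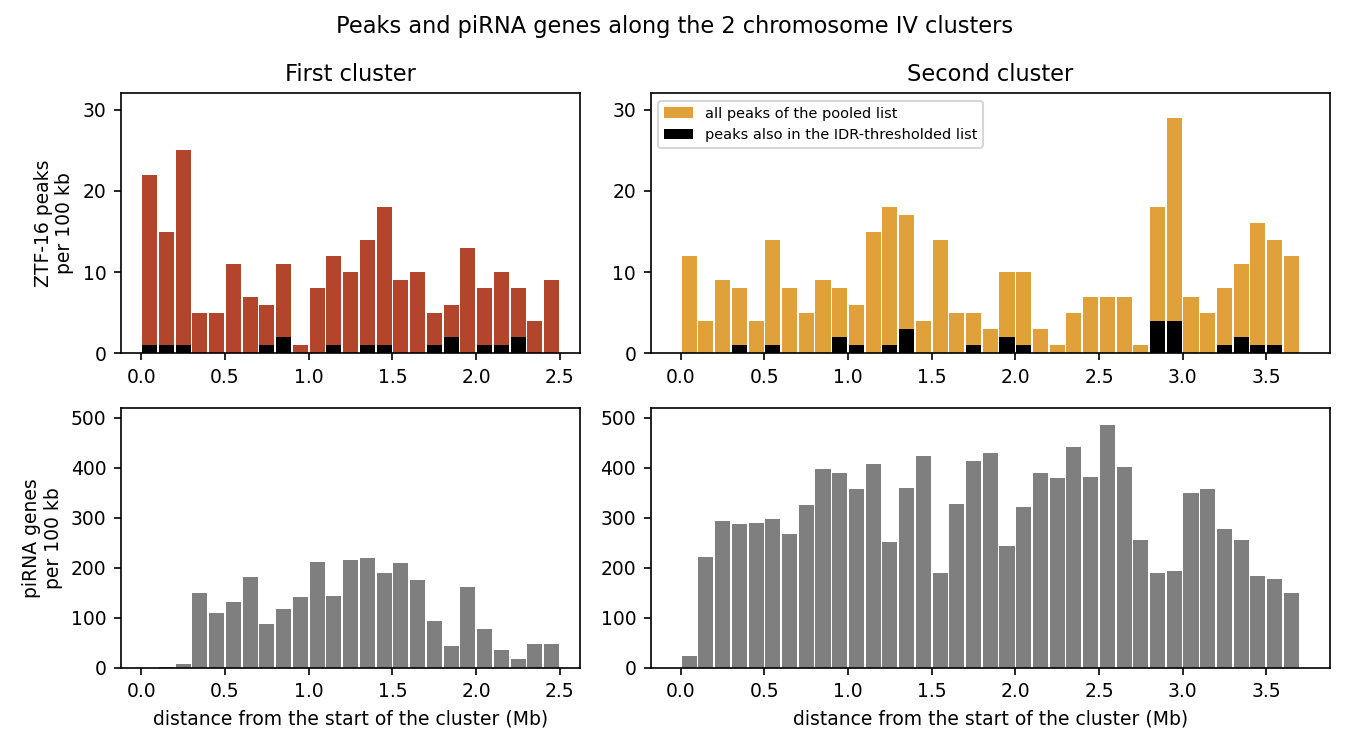
Counts per 100 kb along the first (left) and second (right) cluster, by distance from the cluster's start in Mb: peaks of the pooled list (coloured bars), those of them in the IDR-thresholded list (black, drawn over the coloured bars) and annotated piRNA genes (grey, lower panels). In the second cluster, neighbouring bins with 18 and 29 peaks stand over a dip in piRNA genes (189 and 193).

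Along the second cluster, bins with many piRNA genes held few peaks. The 12 bins of 100 kb with the most piRNA genes (380 to 486 each) held 74 peaks, 6.17 ± 3.64 per bin (SD over bins), and 3 of them were in the IDR-thresholded list. The 12 bins with the fewest (24 to 256 piRNA genes) held 159 peaks, 13.25 ± 7.11 per bin, 15 of them in the IDR-thresholded list. That list holds 5.49% of all pooled peaks, and fewer thresholded peaks go with fewer peaks in total. The counts of 3 and 15 are thus no separate result. Over the 37 bins of that cluster the counts of peaks and of piRNA genes had Pearson's r = −0.50 and Spearman's rho = −0.52. In the first cluster, with 25 bins, r was −0.20 and rho −0.03, so the count there hardly followed the piRNA genes. Its 8 richest bins held 11.12 ± 3.64 peaks and its 8 poorest 12.38 ± 7.62. The bins at its start, from 4500000 to 4800000, held 22, 15 and 25 peaks but just 0, 1 and 8 piRNA genes. The thresholded sites of sar-1, jmjd-1.2 and rpl-20 described below lie in that stretch, where piRNA genes are nearly absent. Neighbouring bins share chromatin and base composition and come from the same 2 libraries. Over all 62 bins the GC content of a bin gave r = 0.48 with its peaks, piRNA genes r = −0.33 and protein-coding 5′ ends r = 0.09. GC content and protein-coding 5′ ends gave r = 0.44 and 0.21 in the second cluster alone, and 0.62 and −0.12 in the first. In the second cluster the 12 bins richest in piRNA genes averaged 8.83 protein-coding 5′ ends and the 12 poorest 16.17. The parts of GC content and gene density in the pattern were not tested.

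Over both clusters together, the lower density lay mainly beside the piRNA genes. At bases within 200 bp of a piRNA gene 5′ end, the clusters held 42.3 peaks per Mb (119 peaks in 2.814 Mb, interval 35.04 to 50.6). At bases farther away they held 139.4 per Mb (472 peaks in 3.386 Mb, 127.1 to 152.5), close to the 147.6 per Mb (140.6 to 154.9) of such bases in the rest of chromosome IV. The near and far densities were 79.96 and 191.7 per Mb in the list of replicate 1, and 68.59 and 162.4 in that of replicate 2. In the IDR-thresholded list the clusters had 0.355 per Mb near piRNA genes (1 peak) and 12.11 farther away (8.69 to 16.43). Such far bases in the rest of the chromosome held 6.92 thresholded peaks per Mb (5.46 to 8.65). By cluster the thresholded far density was 8.46 in the first (4.74 to 13.96) and 16.11 in the second (10.52 to 23.61). In the pooled list the second cluster had the wider gap, 35.5 per Mb near piRNA genes and 164.2 away from them, against 61.9 and 116.8 in the first. The first cluster was thus sparser than the rest of the chromosome away from piRNA genes too (interval 101.4 to 133.8, against 147.6). For the second cluster the interval away from piRNA genes, 145 to 185.2, included the 147.6 of the rest. Away from piRNA genes the rest of the chromosome was uneven too: such bases between the clusters held 118.9 per Mb (110.6 to 127.6), near the first cluster and below the second. The few piRNA genes of the rest of the chromosome had 15 peaks near them, 88.2 per Mb, with a wide interval of 49.3 to 145.4.

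**Figure D2:**
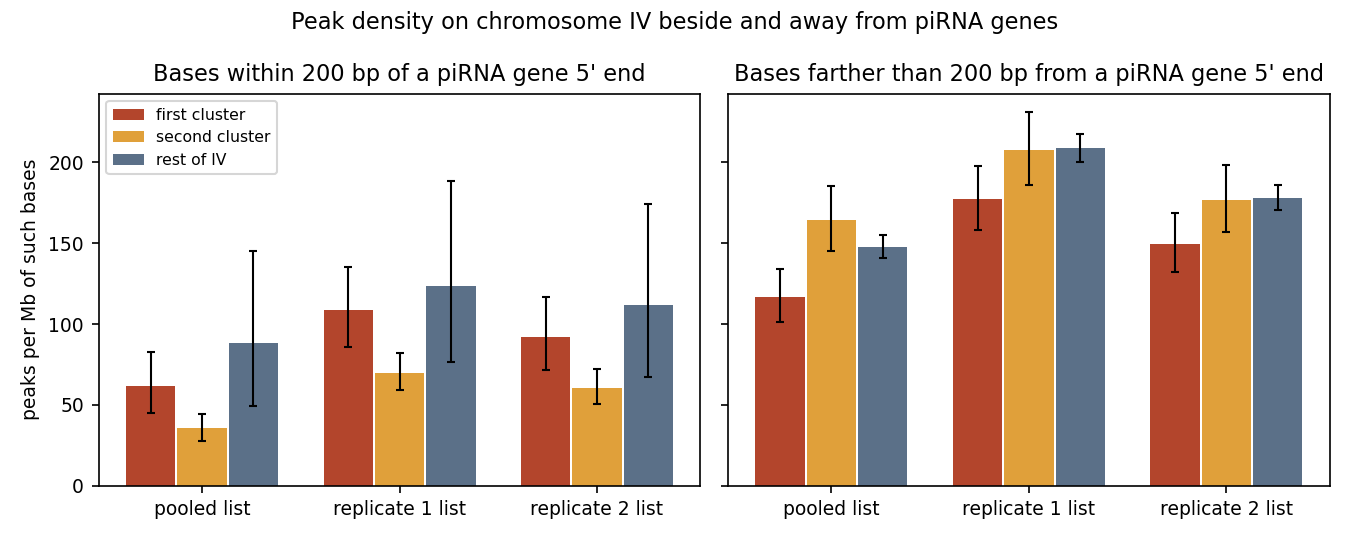
Peaks per Mb of bases within 200 bp of a piRNA gene 5′ end (left) and of bases farther away (right) in the first cluster, the second cluster and the rest of chromosome IV, for the pooled list and each replicate list. Lines are 95% Poisson intervals, and in the pooled list the near bars of both clusters (61.9 and 35.5) stand below their far bars (116.8 and 164.2).

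Summits accordingly lay farther from piRNA genes than the bases of the clusters do. Of the 591 members, 119 (20.1%, Wilson 95% interval 17.1 to 23.6%) were within 200 bp of a piRNA gene 5′ end, while 45.4% of the bases of the clusters are that near. The share was 17.9% of summits against 29.1% of bases in the first cluster, and 21.8% against 56.4% in the second. In the replicate lists it was 25.7% (replicate 1) and 25.98% (replicate 2), again below the share of bases. Within 25 bp there were 16 members, 2.71% against 8.84% of bases. The median member was 801 bp from the nearest piRNA 5′ end and the median base 249 bp, and 281 members had no piRNA gene within 1000 bp. Counted by gene, 191 of the 14204 piRNA genes of the clusters (1.34%) had a pooled summit within 200 bp, against 17 of 510 (3.33%) in the rest of chromosome IV and 29 of 649 (4.47%) on other chromosomes.

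**Figure D3:**
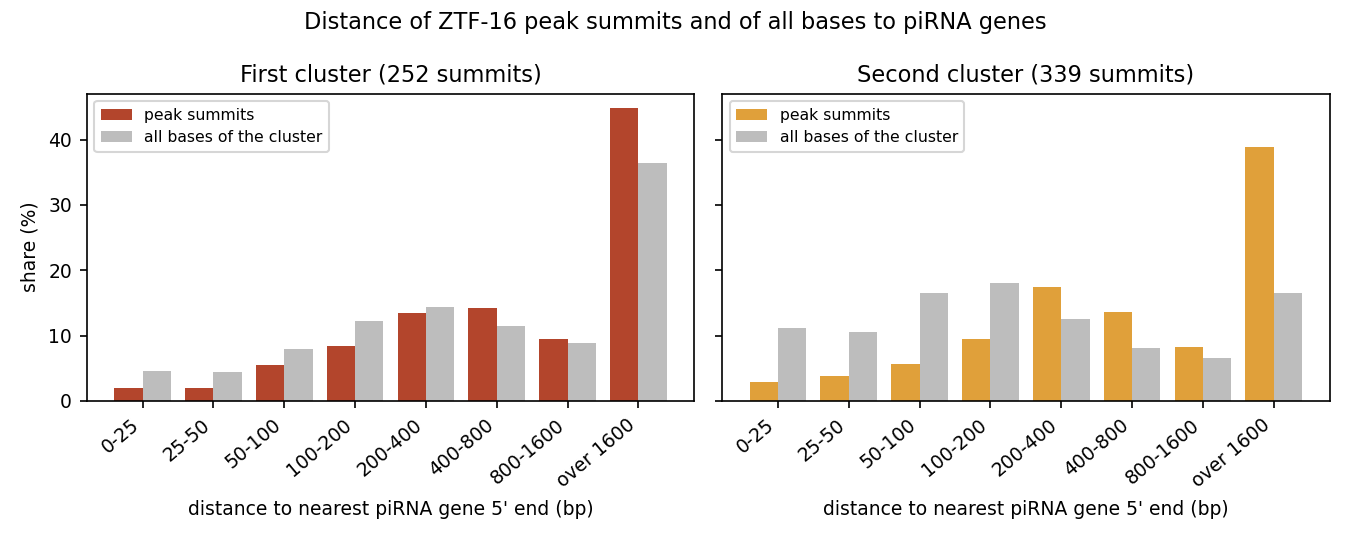
Share of peak summits (coloured) and of all bases (grey) by distance to the nearest piRNA gene 5′ end, in bp, for the first (left) and second (right) cluster. In both clusters each class under 200 bp holds a smaller share of summits than of bases, and the class over 1600 bp a larger one (44.8% against 36.4% in the first, 38.9% against 16.5% in the second).

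Base composition moved with this pattern. The summit base with 50 bases to either side averaged 40.2 ± 9.47% GC in members (SD over 591 peaks) and 40.2 ± 9.55% in the other peaks of chromosome IV. The average over all positions was 32.96% in the clusters and 35.5% in the rest. The surroundings of piRNA 5′ ends in the clusters were poorer still, at 28.4 ± 4.63%. Peak density climbed with GC content both in the clusters and outside them. Under 30% GC the clusters had 31.4 peaks per Mb of such bases and the rest of the chromosome 75.7. At 30 to under 35% they had 78.8 and the rest 112.7, and at 45% or more 314.3 and the rest 336.7. At the densities of the rest of chromosome IV in each of 5 GC classes, the clusters would hold 129.4 peaks per Mb, more than the 95.3 found and less than the 146.7 of the rest. That figure depends on the stretch it is taken from, with 161.4 from the densities before the clusters and 109.0 from those between them. For the first cluster alone, the densities between the clusters gave 112.9 per Mb, inside the interval of its measured 100.8 (88.7 to 114.0).

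Weighted to the GC classes of the members, 30.8% of the bases of the clusters lie within 200 bp of a piRNA 5′ end, against the 20.1% of summits. The same weighting gave 20.5% in the first cluster, which the interval of its 17.9% of summits (13.6 to 23.1%) includes. It gave 38.2% in the second, above the interval of its 21.8% (17.8 to 26.5%). Within the class under 30% GC, 21 of the 50 summits of the second cluster were near a piRNA gene (42%, 29.4 to 55.8%), against 74.0% of such bases. In the first cluster that class had 42.9% of its 35 summits (28.0 to 59.1%) and 43.4% of its bases. At 45% GC or more the shares in both clusters together were 13.1% of summits and 13.9% of bases. GC content can change how DNA is recovered and sequenced as well as where proteins bind, and its part in the result was not tested.

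**Figure D4:**
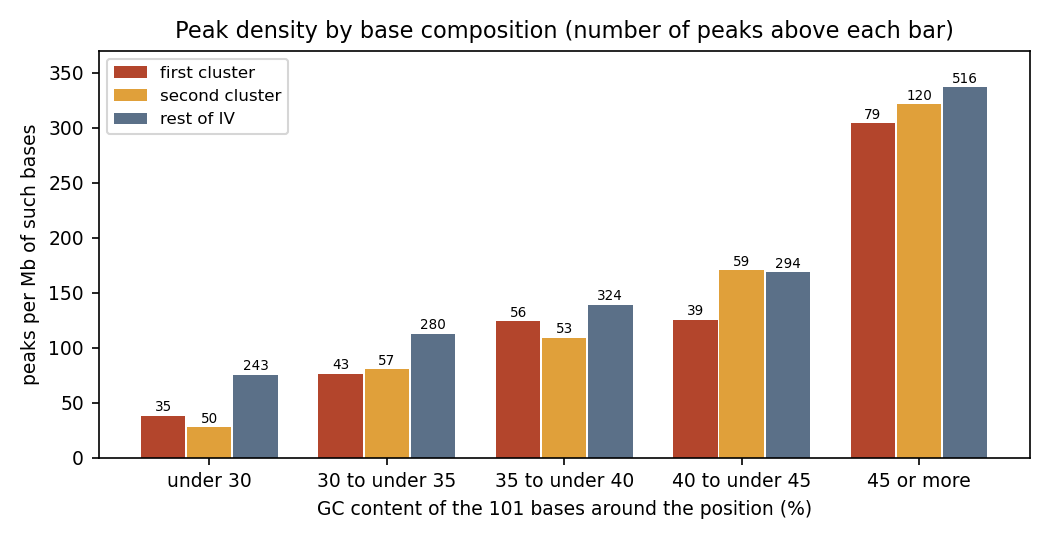
Peaks of the pooled list per Mb of bases, by GC content over 50 bases to either side of the position, in the first cluster, the second cluster and the rest of chromosome IV, with the number of peaks above each bar. Density climbs with GC content in all 3, and the bars of both clusters (38.2 and 28.0 per Mb) are lowest beside the rest (75.7 per Mb) under 30% GC.

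Of the members with a peak in both replicates, the 3 of each cluster nearest to a piRNA 5′ end had signals on either side of the median of all members, 35.7. The summit near sra-30, a gene of a chemoreceptor family, was 4 bp from the 5′ end of 21ur-4113. Its signal, the authors' value of enrichment and comparable only within a list, was 39.3 in the pooled list, 18.65 in replicate 1 and 17.24 in replicate 2. The summit in a coding exon of lgc-10, a ligand-gated ion channel gene, was 11 bp from 21ur-11630 and had signals of 33.7, 14.6 and 16.3 in the same 3 lists. Those in tni-4, a troponin I gene of the pharynx, in an intron of tat-2, a gene of the flippase family, and near Y57G11C.41 and Y41E3.13 lay 18 to 35 bp from a piRNA 5′ end, with pooled signals of 29.8 to 39.3. Those near sra-30, in tat-2 and in tni-4 were above the median and the other 3 below it. None of the 6 was in the IDR-thresholded list, which holds 5.49% of all pooled peaks. Among the 255 members with a peak in both replicates, from which the 6 were picked, it holds 42. A count of 0 among 6 is too small to set against either share.

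The upstream motif of the piRNA genes was likewise scarcer under the summits than in the clusters at large. CTGTTTC, searched on both strands, occurs within 60 bases upstream of 41.2% of the piRNA genes of the clusters, 35.7% of those in the rest of chromosome IV and 10.02% of those on other chromosomes. It was within 100 bases of the summit in 46 members (7.78%, 5.89 to 10.2%), while 18.5% of all such windows in the clusters hold it. In the rest of chromosome IV the values were 3.44% of summits and 3.71% of windows, and over all pooled peaks 3.69%. TGTTTC, which CTGTTTC contains, was found in 19.1% of members against 36.6% of windows. GTTTCA, which can overlap it, was found in 18.3% against 39.3%. The windows were not matched for GC content, and a match is a description of letters, not of binding.

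Recovery in both replicates was like that of the whole list. A summit of each replicate lay within 200 bp of 255 of the 591 members (43.1%, 39.2 to 47.2%), against 639 of 1657 (38.6%) in the rest of chromosome IV and 43.3% of the whole pooled list. Counting those 255 in both, replicate 1 had a summit at 431 members and replicate 2 at 395, and 20 members had one in neither. The IDR-thresholded list held 42 members (7.11%, 5.30 to 9.47%), 16 in the first cluster and 26 in the second. It held 77 of the 1657 other peaks (4.65%, 3.73 to 5.77%), and the background over the whole list was 5.49%. These intervals overlap, and the background lies within that of the members. The median pooled signal was 35.7 in members and 35.6 in the rest of the chromosome.

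All 42 members in the IDR-thresholded list had a summit of each replicate within 200 bp, as did the 77 of the rest of chromosome IV and 818 of the 822 in the whole list. Their ranks ran from 22 to 1227 in replicate 1 (median 499.5) and from 31 to 2619 in replicate 2 (median 542). Their pooled signals ran from 78.65 to 295.8 with a median of 98.1, against a median of 112 for the 77 of the rest of chromosome IV. Most of them lay at ordinary gene starts or at tRNA genes. A promoter window, which spans 1000 bp before and 200 bp after a protein-coding 5′ end, held 23 of the 42 (54.8%, 39.95 to 68.8%), against 45 of 77 (58.4%) in the rest of the chromosome. Such windows cover 16.6% of the bases of the clusters and 21.95% of those of the rest. A further 9 of the 42 lay within 200 bp of a small non-coding gene and 10 had neither. Just 1 of the 42 (2.38%, 0.422 to 12.3%) was within 200 bp of a piRNA gene 5′ end.

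The strongest member of all had its summit at position 17087619 in the second cluster, 181 bp upstream of snx-13, a sorting nexin gene, and 430 bp upstream of snr-1, which encodes an Sm protein of the spliceosome. Its signal was 165.4 in replicate 1 (rank 22) and 130.1 in replicate 2 (rank 42). The strongest of the first cluster, at position 4750067, lay 289 bp upstream of rpl-20, a gene of the large ribosomal subunit, and 173 bp upstream of Y17G9B.5. Its signal was 129.0 in replicate 1 (rank 44) and 145.3 in replicate 2 (rank 31). Both stood among the top 50 of each replicate list and far above the other members, the next of which had a pooled signal of 165.1 against 295.8 and 277.1. The nearest piRNA 5′ end was 9498 bp away from the snx-13 site and 17657 bp away from the rpl-20 site.

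Other promoter sites are given by what their genes are known to do, an ordering made after the names were seen and not tested against other genes. Outside that ordering, a first-cluster summit 635 bp upstream of usp-4 had a pooled signal of 119.7, with 75.4 in replicate 1 and 44.1 in replicate 2. Summits 248 bp upstream of C49A9.10 (89.2) and 50 bp upstream of Y73B6BL.29 (85.85) were in the same cluster. A summit 214 bp upstream of Y73F8A.27 (100.6) was in the second cluster. Among the ordered genes, some act in chromatin or RNA handling. The summit 302 bp upstream of jmjd-1.2, a histone demethylase gene, had a pooled signal of 141.7, with 72.3 in replicate 1 and 76.4 in replicate 2. Summits 267 bp upstream of hil-7 (linker histone family, signal 96.4) and 300 bp upstream of sqd-1 (an RNA-binding protein, 94.1) were also in the first cluster. In the second cluster, gtsf-1, which acts with the RNA polymerase RRF-3 in making another class of small RNAs, the 26G-RNAs, had a summit 125 bp upstream with a pooled signal of 110.8. Its replicates differed, with 73.1 in replicate 1 (rank 227) and 40.2 in replicate 2 (rank 829). A neighbouring summit lay 164 bp upstream of lsy-13 and 225 bp upstream of mel-46, a DEAD-box helicase gene, with a pooled signal of 99.25. ntl-11, a subunit gene of the CCR4-NOT deadenylase, had one 138 bp upstream at 95.9.

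Other sites lay at genes of membrane traffic, metabolism and ribosomes. arf-6, a small GTPase gene of endocytosis, shared a summit with Y116A8C.9 that lay 224 bp upstream of its 5′ end, with a pooled signal of 112.1. sar-1, the small GTPase of vesicles that leave the endoplasmic reticulum, had one 342 bp upstream at 95.3, at the outer edge of the first cluster. vha-8, a subunit gene of the vacuolar ATPase, had one 460 bp upstream at 104.0, shared with C17H12.2. dld-1 (dihydrolipoamide dehydrogenase) had one 275 bp upstream at 109.4, with 53.3 in replicate 1 and 54.8 in replicate 2. sams-3 (S-adenosylmethionine synthetase) had one 475 bp upstream at 105.2, with 55.2 and 52.1 in the same order. Besides rpl-20, rps-18 of the small ribosomal subunit and mrps-7 of the mitochondrial ribosome had a thresholded summit in the window, with pooled signals of 79.8 and 90.05. The rps-18 summit, 535 bp upstream of that gene, lay in an untranslated exon of sec-61.A, 120 bp downstream of the nearer 5′ end of sec-61.A. The mrps-7 summit, 169 bp upstream, was shared with Y57G11C.3, 302 bp from its 5′ end.

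Developmental regulators with a site were lin-66 and skn-1. lin-66, a gene of the heterochronic pathway that times larval cell fates, had a summit 296 bp upstream with a pooled signal of 100.8. Its replicates gave 66.0 (rank 288) and 40.2 (rank 830). skn-1, which encodes a transcription factor of early blastomere fate and of the oxidative stress response, had a summit inside an intron. Its pooled signal was 96.2, with 43.5 in replicate 1 and 48.9 in replicate 2. Other thresholded summits in introns, away from tRNA genes, were those of Y57G11C.22 (130.2), Y65A5A.2 (109.7), ari-1.4 (96.9) and F41H10.3 (88.5). No thresholded member lay in a coding exon, against 96 of all 591 members (16.2%) and 17.02% of the bases. The Wilson upper bound for 0 of 42 is 8.38%.

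**Figure D5:**
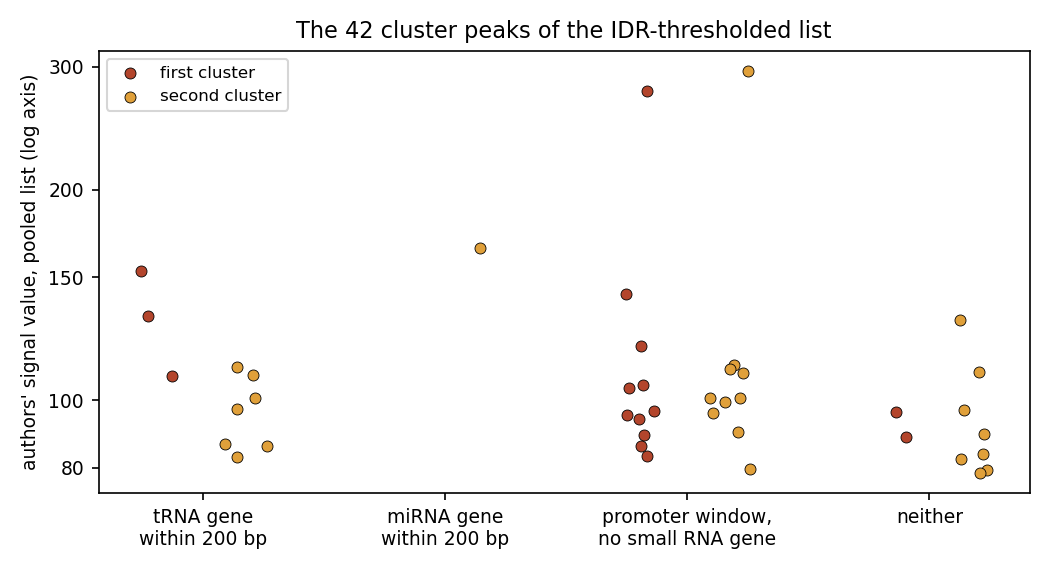
Pooled signal (authors' value, log axis) of the 42 members in the IDR-thresholded list, by what lies at the summit and by cluster. The 2 strongest, at 277.1 and 295.8, are at promoters, and the tRNA gene class holds 10 members, 3 of the first cluster and 7 of the second.

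tRNA genes made up the largest class of small genes under the members. Within 200 bp of a tRNA, snoRNA, snRNA, rRNA or miRNA gene there were 37 members (6.26%, 4.58 to 8.51%), against 54 other peaks of chromosome IV (3.26%, 2.51 to 4.23%). Such bases are 0.739% of the clusters and 0.548% of the rest. Of the 37 members, 27 were at tRNA genes, 4 at snoRNA genes, 3 at snRNA genes and 3 at miRNA genes. Of the 54 other peaks, 25 were at tRNA genes and 18 at snoRNA genes. Counted by gene, 22 of the 41 tRNA genes of the clusters (53.7%, 38.8 to 67.9%) had a pooled summit, against 22 of 30 (73.3%, 55.6 to 85.8%) in the rest. In the thresholded list it was 10 of 41 against 11 of 30. No snoRNA gene of the clusters had a thresholded summit (0 of 18, Wilson upper bound 17.6%), against 10 of 41 in the rest of the chromosome. tRNA genes come in near-identical copies, and the handling of reads that map to several of them is unknown here, so the copy under a peak is uncertain.

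The tRNA-Lys gene near K02B2.6, printed above, had the strongest of these summits, at position 5967196 inside the gene. Its pooled signal was 152.8, with 68.9 in replicate 1 (rank 259) and 80.9 in replicate 2 (rank 161). It was also the sole thresholded member near a piRNA gene, 107 bp from the 5′ end of 21ur-5229. A tRNA-Leu gene, 300 bp upstream of the protease-like gene try-3, had the next (131.8 pooled, 63.25 in replicate 1 and 61.96 in replicate 2). Thresholded summits at genes of tRNA-Gly, tRNA-Val, tRNA-Gln, tRNA-Ala, tRNA-Trp and tRNA-His had pooled signals of 82.9 to 111.7. The strongest member near a miRNA gene was 31 bp from cel-mir-52, of the mir-51 family, with 165.1 pooled, 96.2 in replicate 1 and 69.2 in replicate 2. The strongest near a snoRNA gene and near a snRNA gene had 62.2 and 58.0 and were not thresholded.

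The letters GTTCGANNC were looked for after the printed sequences were seen. They are part of tRNA genes, so a window near such a gene can hold them through the gene itself. On either strand within 100 bases of the summit they occurred in 12 of the 27 members near a tRNA gene and in 8 of the other 564 (1.42%). All such windows in the clusters hold them at 1.10%, and all pooled peaks at 2.91%. In the rest of chromosome IV they occurred in 9 of 25 peaks near a tRNA gene and in 19 of 1632 others (1.16%). Among thresholded peaks away from tRNA genes, 5 of 66 in the rest of chromosome IV (7.58%) and 1 of 32 members held them. The 1 member was the intronic site of Y57G11C.22, where no tRNA gene is annotated. That member had a pooled signal of 130.2, with 72.7 in replicate 1 (rank 231) and 56.7 in replicate 2 (rank 387).

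A stretch of 0.2 Mb, from 16300000 to 16500000, held 47 members and 8 of the 26 thresholded members of the second cluster. It was picked for its counts, and they are a description. Of those 8, 4 lay at tRNA genes (tRNA-Val, tRNA-His and a pair of tRNA-Ala genes) and the others in an intron of Y65A5A.2, at a pair of sites upstream of rho-1, the gene of a GTPase that controls actin and cell contraction, and near zip-7. The rho-1 sites had pooled signals of 79.4 at 1085 bp and 82.4 at 3430 bp upstream. The stretch holds 382 piRNA genes and 25 protein-coding 5′ ends.

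Most members were away from promoters. Of the 549 that were not thresholded, 111 (20.2%, 17.1 to 23.8%) were in a promoter window, against 432 of 1580 (27.3%, 25.2 to 29.6%) in the rest of chromosome IV. Of all 591, 134 were in a promoter window (22.7%, 19.5 to 26.2%; 16.6% of bases), against 477 of 1657 (28.8%, 26.7 to 31.0%; 21.95% of bases) in the rest of chromosome IV. By gene, 152 of the 941 protein-coding genes of the clusters had a pooled summit in the window (16.2%, 13.9 to 18.6%), against 529 of 2340 (22.6%, 20.96 to 24.4%). In the thresholded list the shares were 3.40% and 2.99%, with overlapping intervals. Between protein-coding genes lay 274 members, in introns 194, in coding exons 96 and in untranslated exons 27. Near piRNA genes were 27.6% of the members between genes and away from promoters and small genes (56.4% of such bases). The share was 21.4% of the members inside genes (39.7% of such bases), and 10.8% of those at promoters or small genes (34.1% of such bases). In both clusters together each kind of place thus had a smaller share of summits than of bases near piRNA genes. In the first cluster alone, the members inside genes had 23.3% (16.5 to 31.75%), an interval that includes the 29.2% of such bases.

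The summits nearest to the bounds show what the rule takes in and leaves out. The members just inside lay in or near rfth-1 and ZK180.8 (pooled signals 31.6 and 29.9), prkl-1 (31.15 and 35.2), nlp-17 (29.2 and 30.4) and flp-17 (35.7 and 29.75). Those named for nlp-17 were upstream of it, in an intron of seld-1. The peaks just outside had 44.6 and 36.5 near ZK180.7, 31.4 near gldi-4 (in an intron of trxr-1), 28.8 near adah-1, 58.7 near Y45F10A.7, 40.3 in tbc-9, and 39.0 and 34.9 near cnnm-1. None of these 16 was thresholded, against the background of 5.49%, and the sar-1 site, with 95.3, was the next member inside the first bound.

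The listed genes of the piRNA pathway that could be placed are encoded outside the clusters. Of 28 listed genes 26 were found among the annotated protein-coding genes, and none of these 26 lies in the clusters. prg-2 and tofu-3 were not found there, so their places are not given here. A pooled summit was in the promoter window of 8 of the 26 (30.8%), against 23.5% of all 19973 protein-coding genes, and a thresholded one in that of 1 of 26, against 658 of the 19973. That gene was tofu-1, found in a screen for factors of 21U-RNA production, with a pooled signal of 83.5 at 212 bp upstream. prde-1, a part of the complex that binds the clusters, had a summit 147 bp upstream with a signal of 47.6. tofu-6, which acts in piRNA processing and chromosome segregation, had 50.7 at 205 bp. xnd-1 had 75.5, ints-11 of the Integrator complex 45.6, isw-1, a chromatin remodeller, 44.3, tost-1 34.4 and attf-6 34.0. No pooled summit was in the window of prg-1, snpc-4, tofu-4, tofu-5, parn-1 or henn-1.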

How the data were processed

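The 8 deposited narrowPeak files hold 4 peak lists in each of 2 builds, of which ce11 was used. Per the deposited notes, 3 lists are relaxed (either replicate and the pool) and the last is IDR-thresholded, and 1 control file served both replicates. Aligner, peak caller and IDR threshold were not given in the sources used here. Each peak carries a signal value that the authors deposited, comparable only within its list. Nearly all peaks are 440 bp wide, which limits the resolution, and the lists give no read numbers, so depth is unknown.

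Summits were read as 1-based ce11 positions. Genes came from Ensembl release 115 and sequences and tRNA isotypes from RefSeq, both on WBcel235. A share of summits was set beside the share of bases of the same stretch with the same property. Nearness meant 200 bp, GC content was read over 101 bases, and motifs within 100 bases of the summit. With 1 group there is no test: counts carry 95% Poisson and shares 95% Wilson intervals, and peaks are not replicates. The members, gene list, windows and named members were chosen with earlier results of these data known. Named are the 15 strongest members of each cluster, the 3 of each nearest to a piRNA 5′ end with a peak in both replicates, 2 peaks on either side of each bound, the strongest member of each small gene class, and piRNA pathway genes with a peak. Other names were chosen after their values were seen. Alternatives varied the list, bounds, distances, windows and comparison, and took each replicate list alone. Measures were checked on a simulated chromosome. Python 3.11.15 with numpy 2.4.6, pandas 2.3.3, scipy 1.17.1 and matplotlib 3.10.9 were used.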

Additional observations from a re-analysis of the deposited data

How the results depend on the processing

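Depth is unknown, so weak and absent peaks cannot be told apart, and each value rests on 2 replicates of 1 group. No paired analysis was possible because there is 1 group and no test. Of 72 alternatives, 49 moved a value by more than its spread and 23 did not. The spread was the SD of the 2 replicate lists (0.002 for the density ratio), or a 95% interval, which is wider, for the thresholded share, recovery in both replicates and median signal. The counts of piRNA pathway genes had no such spread and were judged by a fixed factor around the main count.

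The density ratio of 0.650 ran 0.676 to 0.679 over the lists of 1 replicate each. It was 0.615 with each cluster shortened by 0.25 Mb at both ends, 0.687 and 0.625 in the first and second cluster alone, 0.631 without small-gene sites, 0.661 in the upper part of the list by signal, 0.807 against the stretch between the clusters alone, and 0.994 in the IDR-thresholded list, which ends the difference. In that list it was 1.03 for the second cluster alone and 1.16 for both against the stretch between them. The thresholded share of 7.11% was 4.58% to 5.79% for the strongest 822 peaks of 1 replicate list, whose own backgrounds were 3.87% and 4.51%.

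The share near piRNA 5′ ends (20.1%) was 25.7% to 25.98% over single replicates, 23.9% with shortened clusters (50.02% of bases), 17.9% and 21.8% by cluster, 20.8% without small-gene sites, 2.38% for thresholded members, 16.9% for the stronger members, and 11.2% and 41.1% at 100 and 500 bp (29.8% and 61.9% of bases). The promoter share (22.7%) was 20.5% to 20.6% over single replicates, 24.2% and 21.5% by cluster, 23.3% without small-gene sites, 54.8% for thresholded and 24.0% for the stronger members, and 16.9% and 32.1% with 500 and 2000 bp upstream. The small-gene share (6.26%) was 4.58% to 4.85% over single replicates, 7.25% with shortened clusters, 4.37% and 7.67% by cluster, 26.2% for thresholded and 11.5% for the stronger members, and 5.08% and 7.28% at 100 and 500 bp. Recovery in both replicates (43.1%) was 31.5% and 49.9% at 100 and 500 bp. GC content (40.2%) was 38.3% to 38.6% over single replicates, 39.7% without small-gene sites, 46.4% for thresholded and 41.97% for the stronger members, and 39.4% over 100 bp to either side.

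Alternatives added after the data were seen gave r = −0.42 to −0.37 between peaks and piRNA genes per bin over single replicates (−0.33 pooled), and 13 pathway genes with a 2000 bp window against 8. Where a value moved, the cause was not tested.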
